A study of Homo sapiens with 6 samples.

Results

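The 9 genes described here act in or around the plasminogen activator system: the plasminogen activators PLAU and PLAT, the receptor PLAUR, the coagulation initiator F3, the serpins SERPINE2, SERPINB2, SERPINB7 and SERPINF1, and the protease inhibitor A2M. They were picked by symbol out of 57659 genes in the files, with their differences between the groups already known from earlier work on these data, so those differences are given as a description and without a test. All 9 were found and all 9 passed the filter on low counts that left 13445 genes for testing. SERPINB2, SERPINB7 and A2M passed it only through the group in which they were high, so that passing the filter says nothing further about them. RNA came from IMR90, a line of human fetal lung fibroblasts grown in serum-containing medium. The 3 control libraries came from cells expressing a short hairpin RNA against luciferase, and the 3 knockdown libraries from cells expressing one against macroH2A1, a histone H2A variant with a large globular domain; the line and cell type are the same in both groups, so all values come from 1 cell line. The series text calls the 3 libraries of a group biological replicates, and all 6 were sequenced in a single lane.

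The plasminogen activators are serine proteases that turn plasminogen, a blood protein, into plasmin, which dissolves fibrin and cleaves matrix proteins. Urokinase, the product of PLAU, acts mostly at the cell surface when bound to its receptor, and tissue-type activator, the product of PLAT, acts mostly on fibrin. Serpins are inhibitors that trap a protease after it cleaves an exposed loop, and several of them set the balance of this system, although some members of the family, such as SERPINF1, inhibit no protease. F3 encodes tissue factor, the membrane protein that starts coagulation on fibroblasts and other cells outside the vessel, and A2M encodes alpha-2-macroglobulin, a large secreted protein that cages proteases of all classes.

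Gene counts ranged from 3741087 to 6421605 per library. Values are given as CPM, counts per 1000000 of a library size scaled with TMM, and fold changes are those of edgeR, knockdown over control. The targeted gene, MACROH2A1, was at 46.3% of its control level and its groups did not overlap. Over all genes tested 524 were higher and 580 lower at an adjusted p under 0.05 (edgeR quasi-likelihood test, Benjamini-Hochberg), or 442 and 754 when library sizes left out the 20 most abundant genes. No library was set aside.

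PLAT and PLAU, the activators, differed in opposite directions. PLAT had 292, 296 and 304 CPM in the control and 458, 450 and 494 CPM in the knockdown. Every knockdown library was above every control library, and the 3 control libraries lay close together. The group means were 297 ± 6.14 and 467 ± 23.3 CPM (SD, n = 3 per group), a 1.57-fold difference (log2 fold change 0.65, SE 0.07). PLAU had 372, 393 and 416 CPM in the control and 329, 357 and 343 CPM in the knockdown. Here the knockdown libraries were the lower ones, and the gap between the groups was smaller than the SD of the control. The means were 394 ± 21.8 and 343 ± 13.9 CPM (SD, n = 3 per group), with a log2 fold change of -0.20 (SE 0.08). An annotated gene on the opposite strand, C10orf55, shares exons with PLAU, and it held 42 counts in the control and 39 in the knockdown libraries together, against 5646 and 4587 for PLAU.

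PLAUR, which anchors urokinase at the cell surface, had 21.2, 22.4 and 20.6 CPM in the control and 10.9, 17.2 and 17.7 CPM in the knockdown. The control libraries were alike, and among the knockdown libraries replicate 1 stood well below the other 2. The means were 21.4 ± 0.914 and 15.2 ± 3.79 CPM (SD, n = 3 per group), with a log2 fold change of -0.50 (SE 0.19). Without knockdown replicate 1 the log2 fold change was -0.29.

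F3 had 392, 378 and 393 CPM in the control and 269, 302 and 321 CPM in the knockdown. The groups were well apart, with the lowest of the 6 libraries again being knockdown replicate 1. The means were 388 ± 8.21 and 297 ± 26.5 CPM (SD, n = 3 per group), so that the knockdown was at 76.7% of the control (log2 fold change -0.38, SE 0.09).

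**Figure D1:**
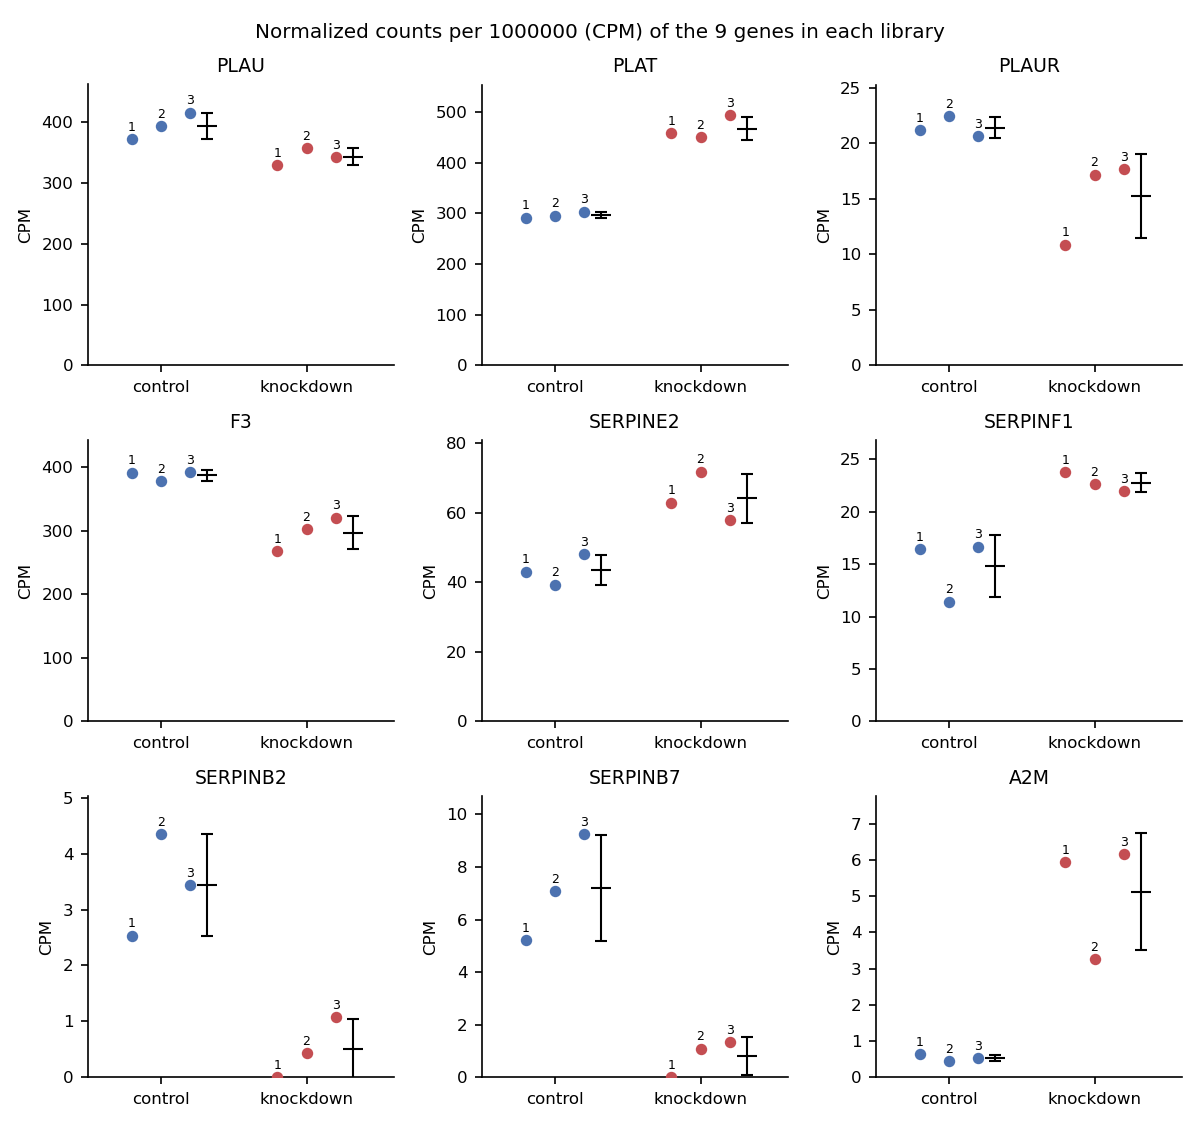
CPM of each of the 9 genes in the 3 control (blue) and 3 knockdown (red) libraries, each axis starting at 0; numbers are replicates, and the black mark gives the mean with its SD (cut at 0 for SERPINB2). PLAT, SERPINE2, SERPINF1 and A2M lie higher in the knockdown libraries and PLAU, PLAUR, F3, SERPINB2 and SERPINB7 lower, with knockdown replicate 1 at 0 for SERPINB2 and SERPINB7.

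Among the serpins, SERPINE2 and SERPINF1 were higher in the knockdown and the clade B genes SERPINB2 and SERPINB7 lower. SERPINE2 encodes protease nexin, a secreted inhibitor of thrombin, urokinase and plasmin that binds to the matrix. It had 43.0, 39.3 and 48.1 CPM in the control and 62.9, 71.8 and 57.9 CPM in the knockdown. All knockdown libraries were above all control libraries, and the spread within each group was moderate. The means were 43.5 ± 4.41 and 64.2 ± 7.04 CPM (SD, n = 3 per group), a 1.48-fold difference (log2 fold change 0.56, SE 0.11). SERPINF1, which encodes pigment epithelium-derived factor, a secreted protein known for restraining vessel growth, had 16.5, 11.4 and 16.7 CPM in the control and 23.7, 22.6 and 22.0 CPM in the knockdown. The knockdown libraries were close together and higher, while control replicate 2 was low. The means were 14.8 ± 2.96 and 22.8 ± 0.895 CPM (SD, n = 3 per group), a 1.53-fold difference (log2 fold change 0.62, SE 0.16).

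SERPINB2 encodes plasminogen activator inhibitor 2, an inhibitor of urokinase that stays largely inside the cell. Its read counts were 16, 19 and 13 in the control and 0, 2 and 4 in the knockdown, or 2.53, 4.34 and 3.44 CPM against 0, 0.435 and 1.07 CPM. SERPINB7, also called megsin and known from mesangial cells and keratinocytes, had 33, 31 and 35 counts in the control and 0, 5 and 5 in the knockdown, or 5.22, 7.09 and 9.25 CPM against 0, 1.09 and 1.34 CPM. For both genes every knockdown library was below every control library, and knockdown replicate 1, the deepest of its group with 5322851 gene counts, had none. A count of 0 there allows up to 3 counts, or 0.564 per 1000000 gene counts.

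As ratios of summed counts, SERPINB2 was 7.40-fold lower in the knockdown, with an exact conditional 95% interval of 3.16 to 21.2, and SERPINB7 9.15-fold lower (interval 4.77 to 19.7). These intervals cover counting error only. The edgeR log2 fold changes were -2.82 (SE 0.67) and -3.18 (SE 0.64), and they moved with single libraries: SERPINB2 was at -2.17 without knockdown replicate 1 and -3.86 without knockdown replicate 3, and SERPINB7 at -2.52 without knockdown replicate 1.

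SERPINB7 and SERPINB2 are neighbouring genes on chromosome 18, in a run of 10 clade B serpin genes. In the order of the RefSeq annotation (GRCh38.p14) the protein-coding genes of this run are SERPINB5, SERPINB12, SERPINB13, SERPINB4, SERPINB3, SERPINB11, SERPINB7, SERPINB2, SERPINB10, HMSD and SERPINB8. SERPINB5, SERPINB12, SERPINB13, SERPINB4, SERPINB3, SERPINB11 and SERPINB10 had no count in any of the 6 libraries. SERPINB8, an inhibitor of furin at the far end of the run, had 68, 55 and 51 counts in the control and 41, 36 and 47 in the knockdown. Its CPM groups overlapped, and its log2 fold change of -0.37 (SE 0.22) was not called (adjusted p = 0.358 in edgeR). SERPINB10, which is listed at 0, shares exons with SERPINB2. Reads that overlap exons of both genes would be ambiguous to the counting and given to neither. The clade B genes on chromosome 6 that were tested, SERPINB1, SERPINB6 and SERPINB9, had log2 fold changes of 0.39, 0.34 and 0.03, and none passed (edgeR adjusted p = 0.270, 0.293 and 0.967).

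**Figure D2:**
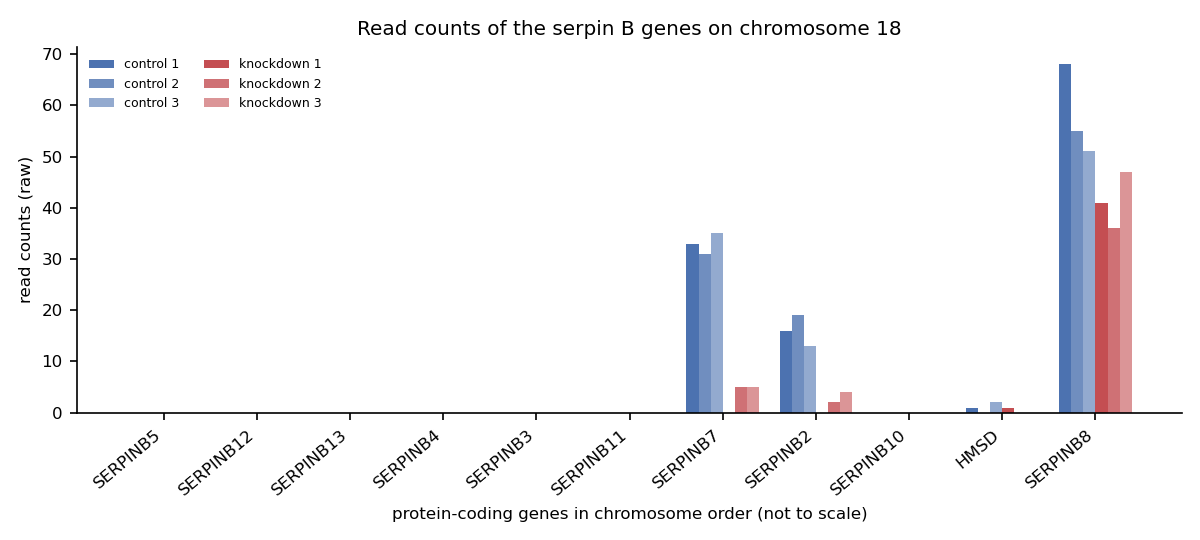
Raw read counts per library (blue control, red knockdown) of the protein-coding genes in the serpin B run on chromosome 18, in chromosome order and not to scale. SERPINB7 and SERPINB2 have 31 to 35 and 13 to 19 counts in the control libraries and 0 to 5 and 0 to 4 in the knockdown libraries, SERPINB8 has counts in every library, and 7 serpin genes are at 0.

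A2M was the gene with the widest difference upwards. Its read counts were 4, 2 and 2 in the control and 30, 15 and 23 in the knockdown, or 0.633, 0.457 and 0.529 CPM against 5.93, 3.26 and 6.16 CPM. The lowest knockdown library held several times the highest control library. The ratio of summed counts was 9.19, with an exact conditional 95% interval of 4.41 to 22.1 (counting error only), and the edgeR log2 fold change 3.15 (SE 0.40). The antisense gene A2M-AS1 shares exons with A2M and had 3, 2 and 2 counts in the control and 5, 2 and 3 in the knockdown, so that its counts were few and similar in both groups; the library protocol marks strand with dUTP, and whether the counting used it is not known here. Of the near relatives of A2M, A2ML1 had no counts, PZP had 2 counts in 1 knockdown library, and CD109, a membrane-anchored relative, had a log2 fold change of 0.15 (edgeR adjusted p = 0.291).

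A2M and PLAT are also made by cells of the vessel wall, so markers of other cell types are given here. Over all genes tested, 3.90% were called higher and 4.31% lower. Of 10 endothelial markers 3 could be tested. KDR, a VEGF receptor, and TEK, the angiopoietin receptor, rose (22.1-fold and 2.12-fold, edgeR adjusted p = 0.00126 and 0.000818). KDR had only 2, 2 and 1 counts in the control, against 51, 33 and 27 in the knockdown. It passed the filter on low counts only through the knockdown libraries, so passing it says nothing further about KDR. As a ratio of summed counts KDR was 24.0-fold higher, with an exact conditional 95% interval of 9.99 to 75.4 (counting error only). FLT1 did not pass, with a log2 fold change of -0.42 (edgeR adjusted p = 0.327). The summed level of the 10 ran from 67.4 to 72.5 CPM in the control and from 143 to 149 CPM in the knockdown libraries, most of it from TEK (62.3 and 132 CPM on average). Of the endothelial genes that could not be tested, PECAM1 and EMCN were at 0 in every library. CDH5, ERG and CLDN5 had 1 count each in all 6 together, and TIE1 had 1 in each group. VWF had 11, 4 and 2 counts in the control and 2, 2 and 4 in the knockdown libraries. Of 10 markers of pericytes and smooth muscle, all tested, MCAM rose 1.48-fold (edgeR adjusted p = 0.0125) and the other 9 did not pass. MCAM was no longer called without control replicate 1 or 2 (adjusted p = 0.0538 and 0.0542 in edgeR). The sum of the 10 ran from 263 to 303 CPM in the control and from 266 to 293 CPM in the knockdown.

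Of 12 fibroblast markers 7 rose and none fell, where 3.90% of all genes tested were called higher and 4.31% lower. Their summed levels were 8221 to 9334 CPM in the control and 12933 to 13727.5 CPM in the knockdown. Of 11 epithelial markers 2 were tested and KRT18, a keratin, fell 3.01-fold (edgeR adjusted p = 0.0108), but was no longer called without control replicate 1 (adjusted p = 0.0510). The sum of the 11 ran from 27.7 to 29.7 CPM in the control and from 7.71 to 12.1 CPM in the knockdown. Nearly all of it came from KRT18 (24.5 and 8.19 CPM on average) and KRT8 (3.43 and 1.65 CPM). EPCAM had 5 counts in the control and 2 in the knockdown libraries together, and CDH1 had 1 in each group. SFTPB and SCGB1A1 were at 0 in every library. Of 10 blood cell markers 1 was tested, CD68, and it did not pass, with a summed level of 5.72 to 7.91 CPM in the control and 5.09 to 5.65 CPM in the knockdown. The part of other cells in the values of A2M, PLAT or the clade B serpins was not tested. In such bulk RNA, fewer cells of a type and less RNA per cell cannot be told apart.

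Counting calls and overlaps over the 9 genes repeats the contrast by which they were known. SERPINE2, PLAT and A2M were among the genes called higher (3 of 9, where 3.90% of all genes tested were), and SERPINB7 and F3 among those called lower (2 of 9, where 4.31% were). The CPM groups did not overlap for any of the 9 (30.4% of all genes tested), 4 being higher (14.5% of all genes tested) and 5 lower (15.9%) in the knockdown. Nothing further is read from these counts. F3 lost its call when any single library was left out, SERPINB7 when any but knockdown replicate 1 was, and SERPINE2 when control replicate 1 or 2 or knockdown replicate 1 or 2 was; since the genes were chosen by this contrast, a call of theirs is no test of them, whether it is lost or not. Of the 3 knockdown libraries, replicate 1 lay farthest from the control mean for 6 of the 9 genes (SERPINB2, SERPINB7, SERPINF1, PLAU, PLAUR and F3), replicate 3 for PLAT and A2M and replicate 2 for SERPINE2. How often each library lay farthest over all genes tested was not counted, so this is no trait of the 9 genes.

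To compare levels between genes, CPM was divided by the merged exon length of each gene in GENCODE 29. In the control, F3 (135 ± 2.86 CPM per kb) and PLAU (133 ± 7.40) were highest and did not differ beyond their SD, followed by PLAT (44.9 ± 0.928). SERPINE2 (4.89 ± 0.495), SERPINF1 (4.84 ± 0.964) and PLAUR (4.80 ± 0.205) came next and did not differ beyond their SD, ahead of SERPINB7 (2.73 ± 0.765), SERPINB2 (1.25 ± 0.330) and A2M (0.0845 ± 0.0138 CPM per kb; SD, n = 3 for each gene). In the knockdown the levels per kb were 116 ± 4.71 for PLAU, 103 ± 9.23 for F3 and 70.6 ± 3.52 for PLAT. At the other end A2M, at 0.802 ± 0.253 CPM per kb, had passed SERPINB7 (0.307 ± 0.270) and SERPINB2 (0.183 ± 0.196). The order depended on the length used. With the longest annotated transcript PLAT came first in the knockdown at 135 CPM per kb, with F3 at 130 and PLAU at 129, but below F3 (169) and PLAU (148) in the control, at 85.8. The same length set PLAUR (13.3), SERPINF1 (9.59) and SERPINE2 (7.26) apart in the control, in the reverse of the order above. This length was chosen after seeing the data.

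The promoter sequences of 4 genes that were lower in the knockdown are shown because they share a short motif. PLAU was also lower, but its windows do not hold the motif and are not shown. Of the genes that were higher, SERPINE2 alone had windows. RefSeq start sites (GRCh38.p14, 250 bases before to 50 after each start) matched 6 of the 9 genes with 10 windows; SERPINF1, PLAT and A2M had no entry. The heptamer TGANTCA, bound by AP-1, the Fos and Jun family of factors, was found in windows of SERPINB2, SERPINB7, PLAUR and F3, and in none of SERPINE2 or PLAU. Heptamers are in capitals below, and sequences run 5′ to 3′ on the strand of the gene. Each was cut at the first base inside an annotated exon, except for PLAUR. The PLAUR window begins inside an annotated exon, and only a short stretch around its heptamer is shown. How much of that stretch is exonic was not determined.
SERPINB2, chr18:63887455-63887699, plus strand: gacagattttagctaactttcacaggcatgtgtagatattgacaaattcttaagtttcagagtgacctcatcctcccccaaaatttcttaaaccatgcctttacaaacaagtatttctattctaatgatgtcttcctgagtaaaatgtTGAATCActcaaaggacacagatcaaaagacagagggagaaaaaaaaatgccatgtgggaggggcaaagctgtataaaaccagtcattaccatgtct
SERPINB7, start 3, chr18:63777531-63777776, plus strand: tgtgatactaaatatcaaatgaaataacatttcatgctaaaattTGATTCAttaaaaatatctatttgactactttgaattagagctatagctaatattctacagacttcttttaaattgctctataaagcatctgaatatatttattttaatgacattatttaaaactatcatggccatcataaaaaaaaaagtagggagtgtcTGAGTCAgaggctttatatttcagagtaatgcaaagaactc
F3, chr1:94541801-94542009, minus strand: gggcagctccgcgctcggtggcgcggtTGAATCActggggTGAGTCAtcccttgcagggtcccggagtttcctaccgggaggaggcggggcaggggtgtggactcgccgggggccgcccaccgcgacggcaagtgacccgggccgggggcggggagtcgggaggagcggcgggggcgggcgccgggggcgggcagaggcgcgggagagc
PLAUR, the site alone, chr19:43670339-43670365, minus strand: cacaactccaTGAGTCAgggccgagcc
SERPINE2, start 2, chr2:224031479-224031728, minus strand, shown as a gene without the heptamer: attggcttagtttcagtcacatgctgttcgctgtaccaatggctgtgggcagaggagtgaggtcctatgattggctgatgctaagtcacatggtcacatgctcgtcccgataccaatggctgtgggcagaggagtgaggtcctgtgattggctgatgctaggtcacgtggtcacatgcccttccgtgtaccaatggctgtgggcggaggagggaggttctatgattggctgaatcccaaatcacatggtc

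The SERPINB2 heptamer begins 102 bases before the start, and a TATAAA match 30 bases before it. SERPINB7 has 3 annotated starts, of which the first holds no heptamer and the other 2 hold 2 each, beginning 154 and 39 bases before start 2 and 206 and 45 bases before start 3. In F3 the heptamers begin 223 and 210 bases before the start, and in PLAUR the single one begins 186 bases before it. The other motifs searched, on both strands, were TGACGTCA (CRE), GGGCGG (Sp1) and TATAAA. TGACGTCA was in none of the 10 windows. GGGCGG was in both windows of SERPINE2, in start 2 of PLAU and 4 times in F3. TATAAA matches also begin 127 and 33 bases before start 3 of SERPINB7 and 28 bases before the start of F3. Those at 33 and 28 bases are on the opposite strand. The motifs were searched independently of each other, and none of the matches shown overlaps a match to another motif.

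Of all 35116 windows in the annotation, 7.71% held TGANTCA, 1.85% TGACGTCA, 45.0% GGGCGG and 11.5% TATAAA. Counted by gene, 9.37% of 27305 genes had TGANTCA in at least 1 window, and genes with several starts have more chances to hold it. Among tested genes with a window, the heptamer was found for 51 of 428 called lower (11.9%), 33 of 365 called higher (9.04%) and 514 of 8008 not called (6.42%); these shares are a description, with no test. A match says only that the letters are present, not that a factor binds there, and which start these cells use was not measured.

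**Figure D3:**
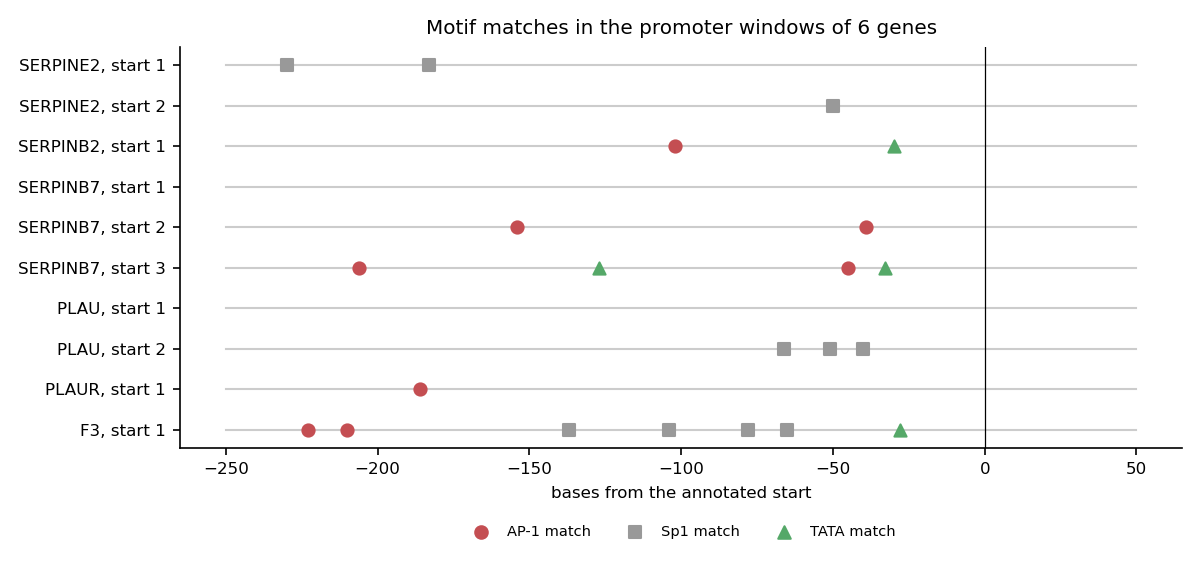
Positions of matches to the AP-1, Sp1 and TATA motifs in the 10 promoter windows of 6 genes, in bases from the annotated start, each line being a window of 250 bases before and 50 after it. AP-1 matches lie in windows of SERPINB2, SERPINB7, PLAUR and F3, and none in those of SERPINE2 and PLAU.

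Of 30 further serpins listed here, 18 had no count in any library, 7 had too few to test and 5 were tested. None of the 5 was called by edgeR, DESeq2 or limma-voom, 1 of them had an unadjusted p under 0.05 in edgeR, as had 3301 of all 13445 genes tested, and their median log2 fold change was 0.21 against 0.0067 over all genes tested. SERPINH1, a collagen chaperone of the endoplasmic reticulum that inhibits no protease, was the most abundant of them, with 351 ± 19.9 CPM in the control and 407 ± 24.1 CPM in the knockdown (SD, n = 3 each). Its log2 fold change was 0.21 (edgeR adjusted p = 0.173), and the other 4 are the clade B genes SERPINB1, SERPINB6, SERPINB8 and SERPINB9 given above.

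Ratios of counts within a library do not depend on the scaling between libraries. The ratio of PLAT to PLAU reads was 0.784, 0.752 and 0.730 in the control and 1.39, 1.26 and 1.44 in the knockdown. PLAU had the more reads of the pair in every control library and PLAT in every knockdown library, and the mean ratio was 1.81 times as high in the knockdown. PLAU reads per PLAUR read ranged from 17.6 to 20.2 in the control and from 19.4 to 30.3 in the knockdown, groups that overlapped. F3 reads per read of TFPI, the inhibitor of the tissue factor pathway, were 2.12 ± 0.0607 in the control and 1.47 ± 0.126 in the knockdown (SD, n = 3 per group). All these ratios contain at least 1 of the 9 genes and are given without a test.

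**Figure D4:**
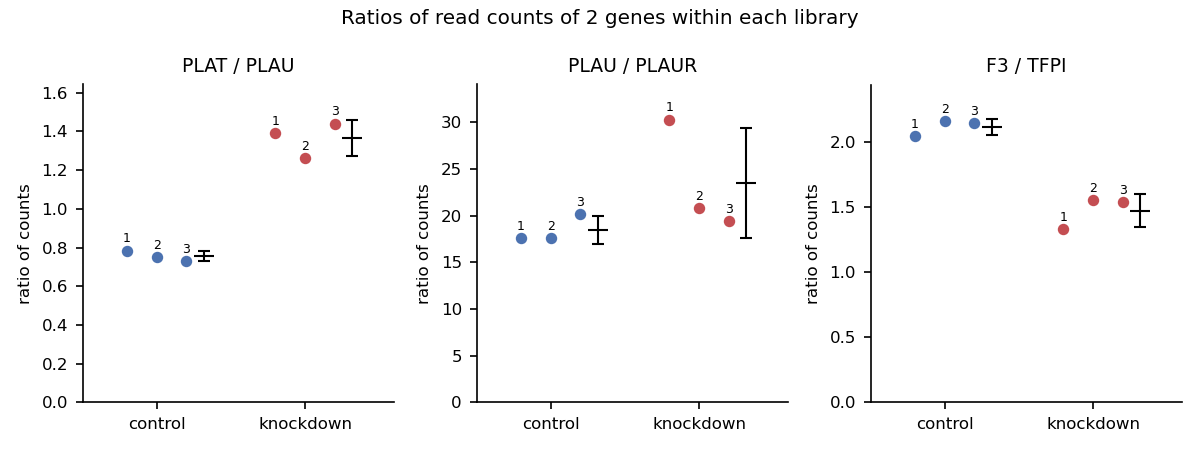
Ratios of read counts of 2 genes within each library (blue control, red knockdown; numbers are replicates; black, mean with SD), each axis starting at 0. PLAT per PLAU lies between 0.730 and 0.784 in the control and between 1.26 and 1.44 in the knockdown, and of the 3 ratios PLAU per PLAUR is the one that overlaps between the groups.

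Of 38 other genes of fibrinolysis and coagulation, 11 had no count in any library, 10 had too few to test and 17 were tested. MRC2 and F8 rose, ANXA2 and F2RL2 fell and 13 did not pass, with a median log2 fold change of -0.12. An unadjusted p under 0.05 in edgeR was found for 9 of the 17, where 3301 of all 13445 genes tested had one. Over all genes tested, 3.90% were called higher and 4.31% lower. MRC2, a collagen receptor that associates with the urokinase receptor, averaged 83.1 ± 9.63 CPM in the control and rose to 126 ± 7.41 (SD, n = 3 each; adjusted p = 0.0174 in edgeR). F8, coagulation factor VIII, had 6, 7 and 5 counts in the control and 22, 21 and 15 in the knockdown (log2 fold change 1.76, SE 0.27, edgeR adjusted p = 0.0129). It passed the filter on low counts only through the knockdown libraries, so passing it says nothing further about F8. ANXA2, which binds plasminogen and PLAT at the cell surface, averaged 672 ± 10.0 CPM in the control and fell to 507 ± 36.2 (SD, n = 3 each; adjusted p = 0.0307 in edgeR), and its partner S100A10 had a log2 fold change of -0.22 (edgeR adjusted p = 0.301). F2RL2, a thrombin-binding receptor, averaged 45.9 ± 3.91 CPM in the control and fell to 30.0 ± 0.979 (SD, n = 3 each; adjusted p = 0.00939 in edgeR).

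Plasminogen itself, PLG, had 1 count in all 6 libraries together, and F2, FGA, FGB, FGG, VTN and THBD had none. ENO1, a glycolytic enzyme that can bind plasminogen, LRP1, an endocytic receptor that clears complexes of proteases and inhibitors, TFPI and F2R, the main thrombin receptor, had log2 fold changes of -0.17, 0.40, 0.14 and -0.30 and did not pass (edgeR adjusted p = 0.244, 0.0647, 0.274 and 0.0817). The number of calls in this list depended on the libraries and tool: 4 with all libraries, 1 without control replicate 1 or knockdown replicate 2, 2 without any other library, and 7 with DESeq2. ANXA2 lost its call without any single library, MRC2 without control replicate 1 or 2 or knockdown replicate 2 or 3, and F8 without control replicate 1 or 3 or knockdown replicate 1 or 2, while F2RL2 held its call without each of the 6.

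Of 32 genes listed here as other protease inhibitors, 8 had no count, 17 had too few to test and 7 were tested. The genes were listed by assumed role, and inhibition of a protease was not measured. Of the 7 tested, 3 rose, none fell and 4 did not pass, with a median log2 fold change of 0.26. An unadjusted p under 0.05 in edgeR was found for 4 of the 7, where 3301 of all 13445 genes tested had one. Over all genes tested, 3.90% were called higher and 4.31% lower. WFDC1, a secreted protein with a whey acidic protein domain, rose 2.81-fold, with means of 10.1 ± 0.823 and 28.4 ± 1.04 CPM (SD, n = 3 each; adjusted p = 0.000917 in edgeR). CRISPLD2, a secreted protein of lung mesenchyme, rose 1.84-fold, with means of 40.4 ± 2.57 and 74.5 ± 8.07 CPM (SD, n = 3 each; adjusted p = 0.00478 in edgeR). SPOCK1, a testican proteoglycan, rose 2.11-fold (edgeR adjusted p = 0.0222), but not when control replicate 1 or 2 or any knockdown replicate was left out. RECK, a membrane-anchored inhibitor of metalloproteinases, CD109, CST3, which encodes cystatin C, and CSTB, an intracellular cystatin, had log2 fold changes of -0.28, 0.15, 0.26 and -0.17 and did not pass (edgeR adjusted p = 0.0543, 0.291, 0.346 and 0.739).

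**Figure D5:**
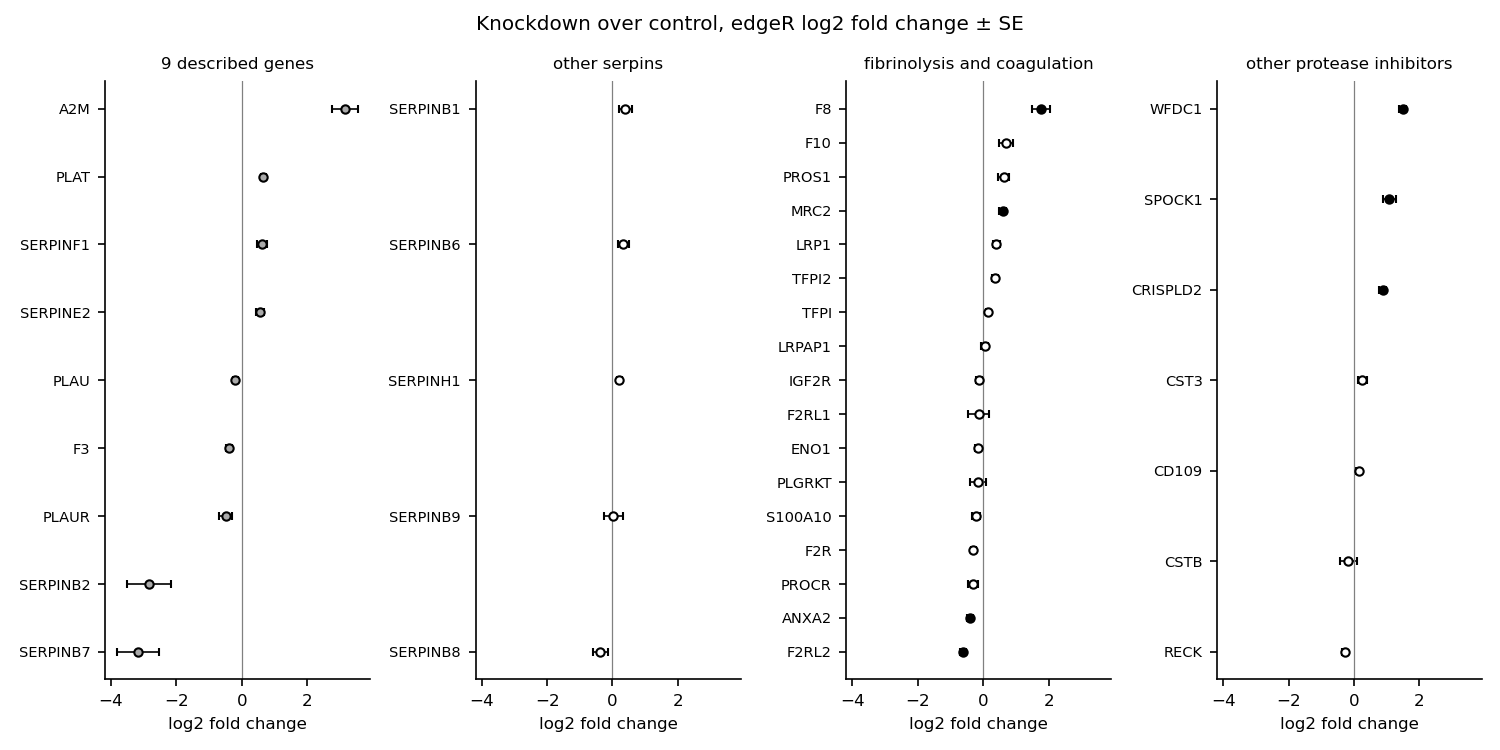
edgeR log2 fold changes, knockdown over control, with their SE, for the 9 described genes (grey, no test) and the tested genes of 3 lists (black, called at an adjusted p under 0.05; white, not called). The described genes run from -3.18 for SERPINB7 to 3.15 for A2M, and none of the 5 other serpins shown was called.

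SERPINB2, SERPINB7 and A2M averaged under 5 CPM over the 6 libraries. For the other 6 genes, the most similar profiles were found by the root mean square difference of centred log2 CPM over the 6 libraries, a value that is small when 2 genes go up and down together by the same amount. For PLAT these were ARRB1, ABHD5 and ST3GAL1 (0.0380, 0.0381 and 0.0417 on the log2 scale), and for SERPINE2 AMOT, NAXD and PLXND1 (0.0517, 0.0606 and 0.0608). For F3 they were TARDBP, PPP1R3C and DHX29 (0.0206, 0.0243 and 0.0372), and for PLAU S100A16, MFSD1 and SUMO3 (0.0192, 0.0244 and 0.0307). The nearest profiles to SERPINF1 were RBL2, CEP68 and ALPK1 (0.0744, 0.0747 and 0.0761) and to PLAUR BRCC3, DNMBP and ELFN2 (0.0809, 0.0910 and 0.0948), so that these 2 noisier genes had no neighbour as close as those of F3 or PLAU. None of these neighbours belongs to the lists above.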

How the data were processed

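RNA was measured in 6 libraries, 3 per group, assigned by title. The files hold raw read counts for each Ensembl gene as the authors deposited them; the submitters' processing notes name CASAVA 1.7, GSNAP, HTSeq and hg19, while annotation, HTSeq version and strand option are unknown here. Of the reads listed, 11.9% to 13.7% were assigned to a gene and 64.4% to 68.8% had no unique alignment; lines naming no gene stayed out of library sizes and tests. The authors also deposited a DESeq 1.10.1 table with a mean signal, a ratio of group means, its log2 and p-values (raw and adjusted), as its header shows; it served only to define an alternative set of 11638 genes.

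Counts were filtered with filterByExpr (minimum count 10), TMM-scaled and tested by the quasi-likelihood method (glmQLFit, glmQLFTest) of edgeR 4.0.16 in R 4.3.3 with group as the only term, adjusted over 13445 genes (threshold 0.05). SE is the log2 fold change over the square root of F. CPM uses TMM-scaled sizes. The steps were tested on simulated data. Alternatives were 4 other scalings, 2 other filters, the authors' genes only, a replicate block, each library left out, DESeq2 1.42.0 and limma-voom 3.58.1. Similar profiles used log2(CPM + 0.5).

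The 9 genes, the lists and the motifs were chosen with earlier results of these data known. Named are the 9 genes, every called gene of the 3 lists of other serpins, fibrinolysis and coagulation, and other protease inhibitors with the 4 most abundant uncalled ones of each, and the 3 most similar profiles; other named genes were chosen after their values were seen. Lengths and exons came from GENCODE 29 (GRCh38), promoter sequences and gene order from RefSeq (GRCh38.p14). The files' build is hg19, and no coordinate of theirs was used. A gene of the serpin list is not reported here.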

Additional observations from a re-analysis of the deposited data

How the results depend on the processing

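All 9 described genes kept the sign of their log2 fold change in 16 of 16 alternatives (from 0.61 to 0.68 for PLAT, from -0.44 to -0.31 for F3 and from -3.86 to -2.17 for SERPINB2); as they were chosen by this contrast, this is a description. Over all genes, 1104 calls became 2060 when only genes of the authors' table were tested, 416 with a replicate block, and 427 to 564 with a library left out. With the authors' genes only, 1 of the other serpins was called (SERPINH1) in place of 0 and 9 genes of fibrinolysis and coagulation in place of 4; DESeq2 called 7 of these, the replicate block 2, and leaving out a library 1 to 2. MCAM and KRT18 lost their calls with the replicate block (edgeR adjusted p = 0.0518 and 0.0505). So did ANXA2, F8 and SPOCK1 (edgeR adjusted p = 0.0871, 0.0593 and 0.0653). ANXA2 also lost its call with no scaling beyond library size (edgeR adjusted p = 0.0582). Deviations of same-numbered libraries from their group means correlated at r = -0.0255, -0.0181 and -0.173 across genes. Those of libraries with different numbers ran from r = -0.145 to 0.173. With 3 libraries per group, these values cannot tell whether the numbers pair the libraries. The log2 fold change of CSTB ran from -0.50 without knockdown replicate 2 to 0.0089, a reversal, without knockdown replicate 1; the cause was not tested. F2RL2, WFDC1 and CRISPLD2 kept their calls in 16 of 16 alternatives. Depth limits SERPINB2, SERPINB7 and A2M, with 6 to 10 counts in their lower group.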
